A study of Homo sapiens with 6 samples.

Results

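The IGF2BP3-bound RNA of 9 genes of epithelial adhesion was examined in HCT116 cells, an established human colorectal carcinoma line. The genes were the cell surface proteins EPCAM, CDH1 and CLDN4, the keratins KRT8, KRT18 and KRT19, the hyaluronan receptor CD44, and the integrin subunits ITGB1 and ITGA6. They were chosen by name, and a cluster of crosslinked reads was counted for a gene when it overlapped at least 1 nt of one of its GENCODE 44 exons on the same strand. By this rule the 9 genes, of 11988 with at least 1 cluster, held 388 of 244645 clusters.

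The data came from PAR-CLIP, in which cells incorporate 4-thiouridine (4sU) into RNA, ultraviolet light crosslinks the RNA to the bound protein, and crosslinked bases are read as T-to-C conversions. All 6 libraries were prepared from cells of the Tet-OsTIR1-PURO genotype that received 100 µM 4sU for 15 h and were irradiated at 365 nm. The 5 IGF2BP3 libraries differed in the RNase and in its concentrations in U/µL, given here as in lysate/on beads: RNase I at 0.05/0.05, 0.1/0.025 or 0.05/0.025, and RNase T1, which cuts after G, at 1/1 or 0.25/0.25. The control was an IgG precipitation with RNase I at 0.1/0.025. Gel-purified complexes were electroeluted for RNase I 0.05/0.05 and RNase T1 1/1, and recovered from crushed gel for the other IGF2BP3 libraries. The anti-IGF2BP3 antibody also partly recognises the paralog IGF2BP2. Each condition had 1 library, so no difference between conditions could be tested, and every interval below is a 95% interval that covers counting error only.

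IGF2BP3 belongs to a family of oncofetal RNA-binding proteins that bind mRNAs, often in the 3′UTR, and are known for effects on mRNA stability, localization and translation. Epithelial cells hold together through cadherins and claudins at their junctions and through keratin filaments inside the cell, while integrins and CD44 attach them to the surrounding matrix. Changes in these proteins are a hallmark of the loss of epithelial character in carcinomas.

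CD44 carried by far the most IGF2BP3 reads among the 9 genes, at a nearly constant level in all 5 libraries, followed by ITGB1 and ITGA6. EPCAM was bound at a lower level in every library, and CDH1, which encodes E-cadherin, was among the least bound. KRT8 and KRT19 were the genes that differed most between the enzymes in the electroeluted libraries. For them, and also for EPCAM, every RNase I level was above both RNase T1 levels. RNase T1 0.25/0.25 had no cluster on KRT8 or KRT19, nor on CLDN4 or KRT18. The libraries held 13568 to 90999 clusters with 182448 to 2362467 reads, and the shallowest was RNase T1 0.25/0.25. The 9 genes took 0.211% to 0.280% of the cluster reads, and CD44 alone took 63.6% to 74.2% of those. The IgG library held 25 clusters with 324 reads and none on any of the 9 genes. At the shares above so few reads would hold hardly any of these genes, so their absence adds little to the small size of that library.

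The sequences below are 30-base windows around the mode that the authors' cluster caller gave for the cluster with the highest level at a site. They are shown because they mark the sites on which the results turn: the strongest site of each gene bound in all 5 libraries, and the keratin sites at or near the ends of the coding sequence. All are the transcript strand of the hg38 (GRCh38) genome, written 5′ to 3′ with T for U, with capitals on tetramers associated with the IGF2BP proteins or with methylated adenosine, namely CATT with its relatives ending in A (CATA) or in C (CATC), then CAGT, and last GGAC.
CD44 3′UTR site: tgaaaagcaacaagccactccaGGACaagg
ITGB1 3′UTR site: cttgtttcacactagtcaCATTcttgtttt
ITGA6 3′UTR site: gcaatagaaggtgatgttgcCATCctaccg
EPCAM 3′UTR site: caagtgtcttatatatgcagatctaatgta
KRT8 3′UTR site: cccctcctgcgctgccccagagcctgggaa
KRT8 5′ coding site: ccgctcctacacgagtgggcccggttcccg
KRT18 start-codon site: cttcaccactcgctccaccttctccaccaa
KRT19 start-codon site: gacttcctacagctatcgcCAGTcgtcggc

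The CD44 window lies at chr11:35231317-35231346 on the plus strand and the ITGB1 window at chr10:32900478-32900507 on the minus strand. The ITGA6 and EPCAM windows lie on the plus strand at chr2:172504742-172504771 and chr2:47386806-47386835. The KRT8 windows lie on the minus strand at chr12:52897371-52897400 and chr12:52904887-52904916, that of KRT18 on the plus strand at chr12:52949179-52949208 and that of KRT19 on the minus strand at chr17:41528216-41528245. The ITGB1 window is rich in T, with 15 of 30 bases, and has 3 G. The KRT8 windows hold 8 and 9 G and 4 and 5 T.

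The tetramers were searched on the transcript strand only, in the 30-base window around the mode of every cluster, and GGAC can share its last base with the first base of any of the other tetramers. CATT or one of its relatives ending in A or C occurred in 27.8% to 29.4% of member windows in the RNase I libraries, in 44.8% in RNase T1 1/1 and in 28.6% of only 35 windows in RNase T1 0.25/0.25. Over all clusters these shares were 31.9% to 34.2% with RNase I and 45.2% and 43.9% with RNase T1. CAGT occurred in 7.56% to 10.1% of member windows and in 13.4% to 15.5% of all windows. GGAC, the core of the consensus for m6A methylation, occurred in 5.71% to 17.6% of member windows and in 5.48% to 7.60% of all windows. These counts describe letters in windows, and many member windows cover the same site in several libraries.

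Levels are given in CPM, the reads in the clusters of a gene per 1000000 reads in all clusters of that library. PAR-CLIP did not measure transcript abundance, so more binding per transcript and more transcript cannot be told apart. A gene was called a target in a library when at least 1 cluster exceeded 10 CPM and 0.5 conversion events per read. The CPM limit equalled 6.71 to 23.6 reads in the deeper libraries but 1.82 reads in RNase T1 0.25/0.25, where every cluster passed it. The files list called clusters only, so a gene with no cluster may still have had reads.

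**Figure D1:**
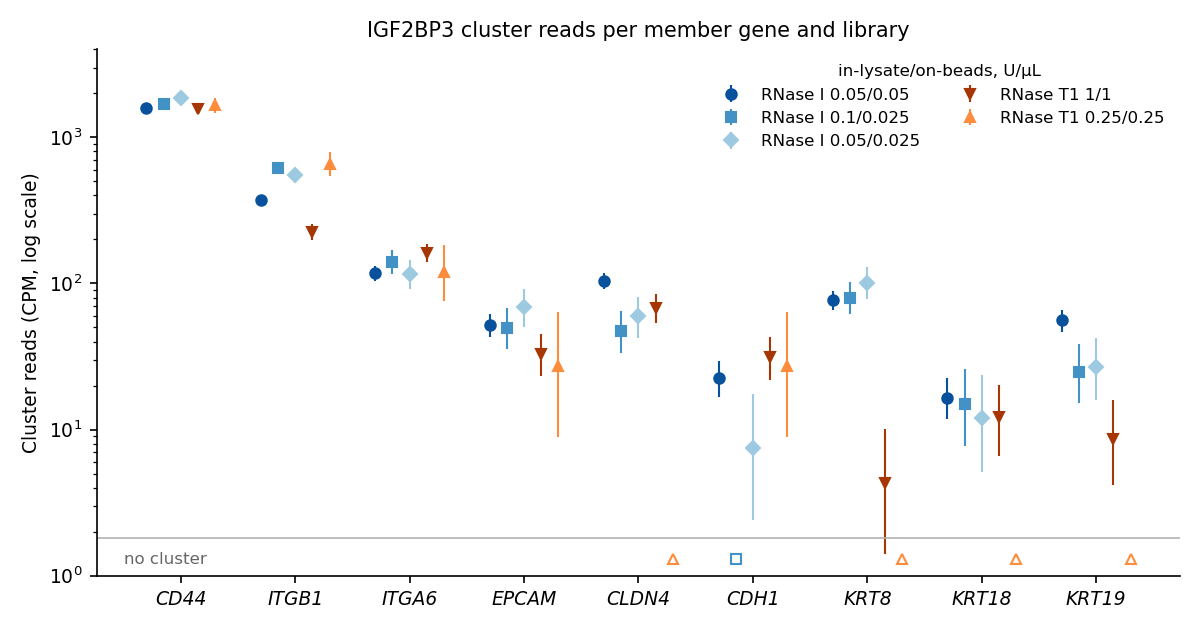
Cluster reads of each gene in CPM on a log axis, in the 5 IGF2BP3 libraries, with 1 point per library, 95% exact Poisson intervals as whiskers and open symbols for no cluster. CD44 sits between 1563 and 1853 CPM in every library, while KRT8, KRT19 and, by less, EPCAM are lower with RNase T1 than with RNase I.

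EPCAM, a homophilic adhesion molecule of epithelia, had 122, 40 and 46 reads with RNase I at 0.05/0.05, 0.1/0.025 and 0.05/0.025, and 38 and 5 with RNase T1 at 1/1 and 0.25/0.25. These equalled 51.6, 49.8, 68.6, 32.8 and 27.4 CPM. Each RNase I level was above both RNase T1 levels, although the interval of the shallowest library, 8.90 to 64.0 CPM, reached over the RNase I levels of 0.05/0.05 and 0.1/0.025. One site, chr2:47386740-47386923, lay 130 to 313 nt past the last coding base and passed both criteria in all 5 libraries, with 106, 29, 37, 38 and 5 reads. All EPCAM reads lay in 3′UTR clusters except in RNase I 0.1/0.025, where 87.5% did. EPCAM was therefore called a target in 5 of 5 libraries, each time on this site, and in RNase I 0.05/0.025 also on the neighbouring site chr2:47386928-47386987.

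CDH1, which encodes E-cadherin, the central adhesion protein of adherens junctions, had 53 and 5 reads with RNase I at 0.05/0.05 and 0.05/0.025, no cluster at 0.1/0.025, and 36 and 5 reads with RNase T1 at 1/1 and 0.25/0.25. In the order used for EPCAM the levels were 22.4, 0, 7.45, 31.1 and 27.4 CPM. It was the only gene of the 9 whose RNase T1 levels both exceeded every RNase I level, although their intervals overlapped that of RNase I 0.05/0.05. All of its reads lay in the 3′UTR, spread over 8 sites, of which 6 were seen in a single library. Its highest site, chr16:68834466-68834565, held 19 reads in RNase I 0.05/0.05, 14 in RNase T1 1/1 and 5 in RNase T1 0.25/0.25. The sole target call of CDH1 came from that last cluster of 5 reads.

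CLDN4, a claudin of the tight junction, had 245, 38 and 40 reads after RNase I at 0.05/0.05, 0.1/0.025 and 0.05/0.025, 78 after RNase T1 at 1/1 and no cluster at 0.25/0.25. These were 104, 47.3, 59.6, 67.4 and 0 CPM. The RNase T1 1/1 level lay inside the RNase I range. CLDN4 reads were split along the gene: 42.9%, 71.1%, 50.0% and 60.3% lay in 3′UTR clusters in the 4 libraries with reads. Another part, 111 of 245, 11 of 38, 20 of 40 and 31 of 78 reads, lay outside the single exon of the canonical transcript, on exons that only other annotated CLDN4 transcripts contain. The site chr7:73829169-73829304, on such an exon, held 30, 11, 3 and 22 reads and passed both criteria in 3 libraries. Without it and the other exons outside the canonical transcript, CLDN4 was not a target in RNase T1 1/1.

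KRT8, KRT18 and KRT19 encode intermediate filament proteins of simple epithelia, in which KRT8 pairs with KRT18. KRT8 had 181, 64 and 68 reads in RNase I 0.05/0.05, 0.1/0.025 and 0.05/0.025, 5 reads in RNase T1 1/1 and no cluster in RNase T1 0.25/0.25. The levels were 76.6, 79.7 and 101 CPM with RNase I and 4.32 and 0 CPM with RNase T1. The lowest RNase I level thus lay far above the highest RNase T1 level, whose interval reached 10.1 CPM. Even the RNase T1 1/1 reads were not on the main KRT8 mRNA: that cluster, chr12:52948215-52948239, lay on a distant exon of the transcript KRT8-217, beside KRT18, with 0.40 conversion events per read. The exons of the canonical KRT8 transcript therefore had no cluster in either RNase T1 library.

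The RNase I clusters of KRT8 lay at the ends of the coding sequence. The site chr12:52897246-52897486, from 55 nt before to 185 nt after the last coding base, held 118, 47 and 45 reads. The site chr12:52904844-52905048, around the start codon, held 49, 17 and 23 reads. Of these, 19 reads in RNase I 0.05/0.05 and none in the other libraries were in a cluster over the start codon itself. The window printed above is from the coding sequence of this site and is rich in G and C. The only other sites on the canonical transcript were a pair of short ones next to these, each seen in RNase I 0.05/0.05 alone.

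KRT19 had 132, 20 and 18 reads in the same RNase I libraries, 10 in RNase T1 1/1 and no cluster in RNase T1 0.25/0.25, or 55.9, 24.9, 26.8, 8.64 and 0 CPM. As for KRT8, every RNase I level exceeded both RNase T1 levels. The start-codon site chr17:41528157-41528288 held 33, 8 and 18 reads with RNase I and none with RNase T1. The stop-codon site chr17:41523690-41523825 held 38 and 6 reads in RNase I 0.05/0.05 and 0.1/0.025 and none in 0.05/0.025. Sites further inside the coding sequence included chr17:41525204-41525273, with 20 reads in RNase I 0.05/0.05 alone. The 10 reads of RNase T1 1/1 fell on another site, chr17:41523617-41523672, at the very end of the 3′UTR, which also held 17 reads of RNase I 0.05/0.05.

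KRT18 had 39, 12, 8, 14 and 0 reads in the libraries in the order above, and 16.5, 14.9, 11.9, 12.1 and 0 CPM. Unlike the other keratins, its RNase T1 1/1 level lay within the RNase I range. Its site at the start codon, chr12:52949116-52949213, held 18, 12, 8 and 14 reads in the 4 libraries with clusters, which was every read of KRT18 except in RNase I 0.05/0.05. No KRT18 cluster overlapped the 3′UTR, which is only 67 nt long. The printed KRT18 window has 1 G in 30 bases, against 7 in that of KRT19 and 9 in the 5′ coding window of KRT8.

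Keratin and integrin genes have processed copies elsewhere in the genome, and how reads that map to several places were handled is not given in the sources used here, so their split between gene and copy is uncertain. The 51 annotated copies of KRT8 held 5, 7 and 11 reads in the RNase I libraries, on KRT8P3 and, for 5 of the 11, KRT8P33, and none with RNase T1. These equalled 2.76%, 10.9% and 16.2% of the reads of KRT8. KRT19P1 held 8 reads in RNase I 0.05/0.05 and 6 in RNase I 0.05/0.025, which equalled 6.06% and 33.3% of the reads of KRT19. None of the 68 annotated copies of KRT18 had a cluster. ITGB1P1 held 63, 5, 20 and 8 reads in the 4 deeper libraries, which was 1.01% to 7.18% of the reads of ITGB1.

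**Figure D2:**
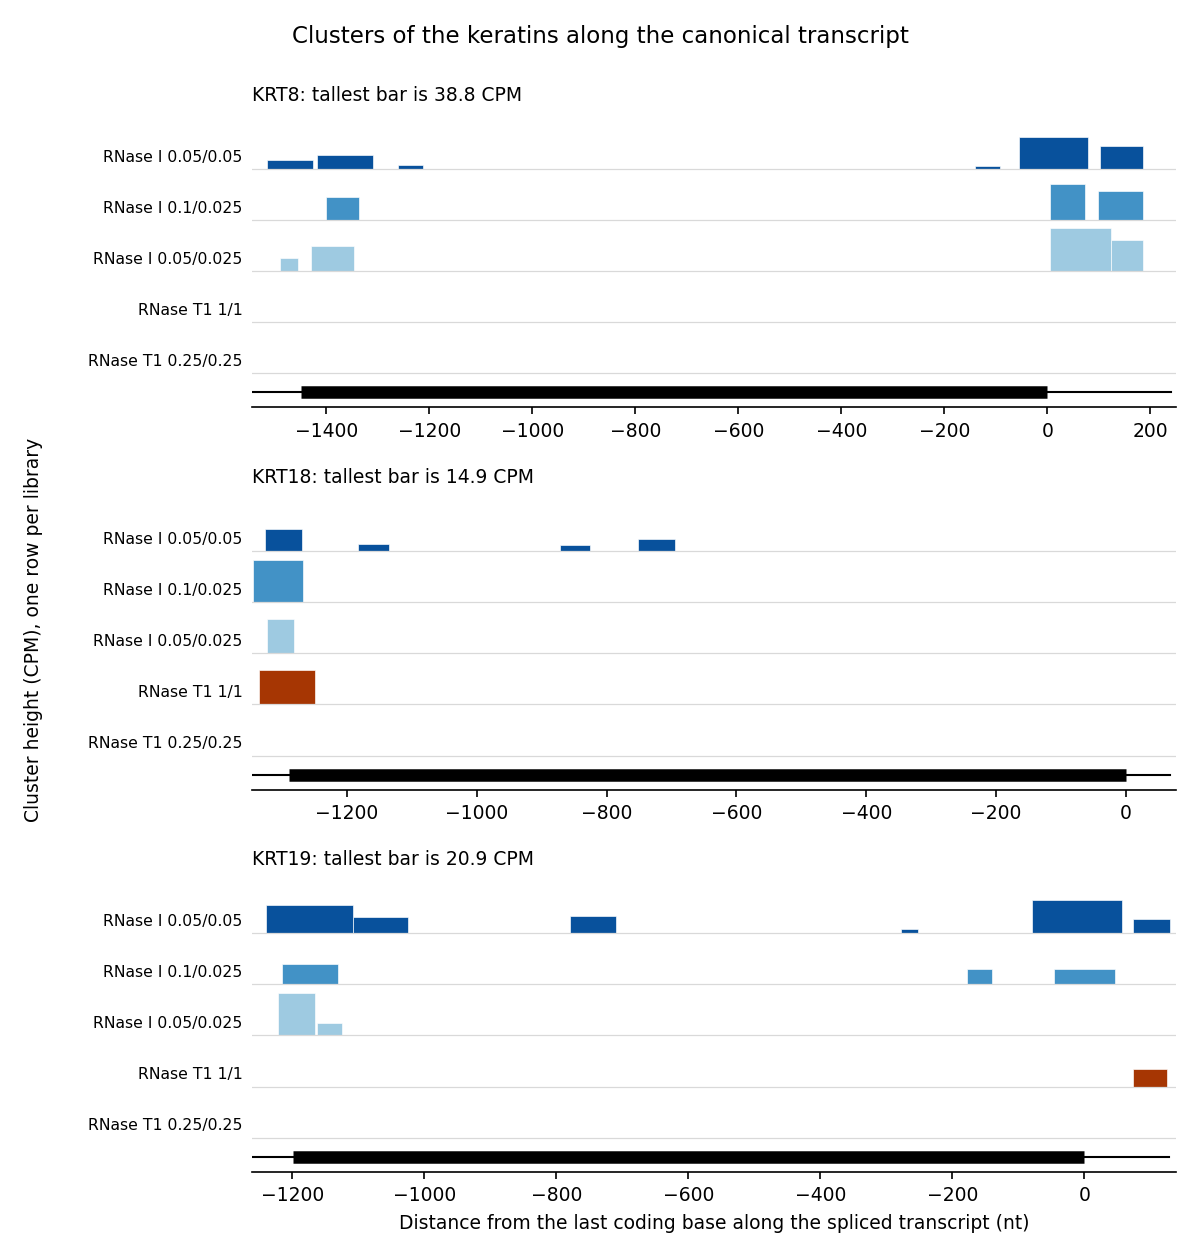
Clusters of KRT8, KRT18 and KRT19 along the canonical transcript in each library, by distance from the last coding base in nt, with the height of each bar the CPM of the cluster and the thick line the coding sequence. RNase I clusters of KRT8 stand at both ends of the coding sequence. Those of KRT19 stand near the start codon alone in RNase I 0.05/0.025, and also inside and at the end of the coding sequence in the other RNase I libraries. The start-codon cluster of KRT18 is present with both enzymes, and KRT8 has no RNase T1 cluster here.

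Clusters over a start codon were counted after these sites had been seen. They occurred in any IGF2BP3 library for 5 of the 9 genes (KRT8, KRT18, KRT19, CLDN4 and CD44), beside 3.96% of the 9353 protein-coding genes with a cluster. KRT18 had one in 4 libraries and KRT19 in the 3 RNase I libraries, whereas KRT8, CLDN4 and CD44 had one in RNase I 0.05/0.05 alone. For CLDN4 it held 6 reads and for CD44 57, or 1.52% of the CD44 reads in that library. Clusters over the stop codon occurred for 5 of the 9 genes (CD44, ITGB1, KRT8, KRT19 and CLDN4), beside 23% of the same protein-coding genes.

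Base composition was looked at after the levels had been seen, and the keratins were among the genes richest in G. G made up 30.1% of the KRT8 transcript, 30.2% of KRT18 and 32.4% of KRT19, against 20.8% of CD44 and 22.7% of ITGB1. The canonical transcript of CLDN4 was as rich in G, at 31.0%, and CLDN4 had 78 reads in RNase T1 1/1, of which 31 lay outside that transcript. Complete digestion after every G would leave pieces of at least 18 nt, the shortest reads kept, over 3.08% of the KRT8 transcript, 1.70% of KRT18, 0% of KRT19 and 11.8% of CD44. Within the sequence that RNase I clusters covered, such pieces made up 1.57% for KRT8, 0% for KRT19 and 2.82% for KRT18. The same share was 3.23% for ITGB1, which had RNase T1 clusters in both libraries. In the remaining genes it ran from 5.82% (EPCAM) to 21.7% (CDH1), with 11.7% for CLDN4 and for CD44. The RNase I clusters of KRT8 held 24.8% to 26.1% G and those of KRT19 28.6% to 31.6%, beside medians over all genes of 17.5% to 18.8%. Those of CLDN4 held 16.6% to 23.2% and those of KRT18 19.0% to 23.0%. The part of G content in the enzyme difference was not tested.

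CD44, a receptor for hyaluronan made in many splice forms, had 3743, 1365 and 1243 reads in RNase I 0.05/0.05, 0.1/0.025 and 0.05/0.025, and 1809 and 301 in RNase T1 1/1 and 0.25/0.25. The levels were 1584, 1699, 1853, 1563 and 1650 CPM. The highest was 1.19 times the lowest, the smallest spread among the 4 genes with clusters in every library, the others being ITGA6, EPCAM and ITGB1. By mean level CD44 ranked 43 of 11988 genes. Per length of canonical transcript it also led the 9 genes, with a mean of 307 CPM per kb, ahead of 130 for ITGB1. The next value, 32.8 for CLDN4, counts its reads outside the canonical transcript without the length of those exons, so its place is overstated. Among 1668 genes with at least 20 reads in each library, the profiles most like that of CD44 across the 5 libraries were those of YTHDF2, ARL2BP and MRPL30, with root mean square differences of 0.05, 0.05 and 0.07 on the log2 scale.

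Clusters covered most of the long CD44 3′UTR of 3072 nt: 91.6%, 80.4% and 76.1% of it with RNase I, 58.2% with RNase T1 1/1 and 27.5% with RNase T1 0.25/0.25. Clusters on this 3′UTR held 71.1%, 74.6%, 74.7%, 69.7% and 79.4% of CD44 reads. The strongest stretch, chr11:35230487-35231468, lay 1157 to 2138 nt past the last coding base and held 1065, 413, 380, 474 and 88 reads. The next, chr11:35231475-35231827, held 405, 191, 136, 249 and 68 reads. RNase I covered the first stretch with 3 to 6 long clusters whereas RNase T1 1/1 had 11 and RNase T1 0.25/0.25 had 7 shorter ones. Of 31 separate CD44 sites, 8 had clusters in all 5 libraries.

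The exons of CD44 were compared after their values had been seen. Its canonical transcript, CD44-208, has 18 exons, of which exons 6 to 14 are the variable ones that splicing leaves out of 9 to 20 annotated coding transcripts each. The variable exons held 327, 103, 124, 192 and 11 reads, or 121, 112, 162, 145 and 52.7 CPM per kb. The other 8 exons before the last held 302, 299, 257, 286 and 276 CPM per kb, and the last exon, with the 3′UTR, 344, 387, 430, 333 and 400 CPM per kb. Variable exons were thus the least covered class in every library, yet 5 to 7 of the 9 had a cluster in the 4 deeper libraries. Reads over exon junctions could not be mapped by the aligner used, which bears most on short exons.

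ITGB1 encodes the β1 subunit shared by many matrix-binding integrins. It had 878, 494, 371, 261 and 120 reads in the same order of libraries, and 372, 615, 553, 226 and 658 CPM. Here the enzymes did not separate: the lowest and the highest level were both from RNase T1 libraries. The electroeluted libraries had the 2 lowest levels, 372 CPM with RNase I and 226 CPM with RNase T1. The 3′UTR of the canonical transcript held 86.0%, 92.1%, 95.1%, 91.2% and 100% of its reads, and the 3′-most of 3 equal parts of the 3′UTR alone held 60.9% to 78.3% of the reads centred in it. A single site there, chr10:32900397-32900700, 873 to 1176 nt past the last coding base, held 490, 294, 215, 128 and 87 reads.

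**Figure D3:**
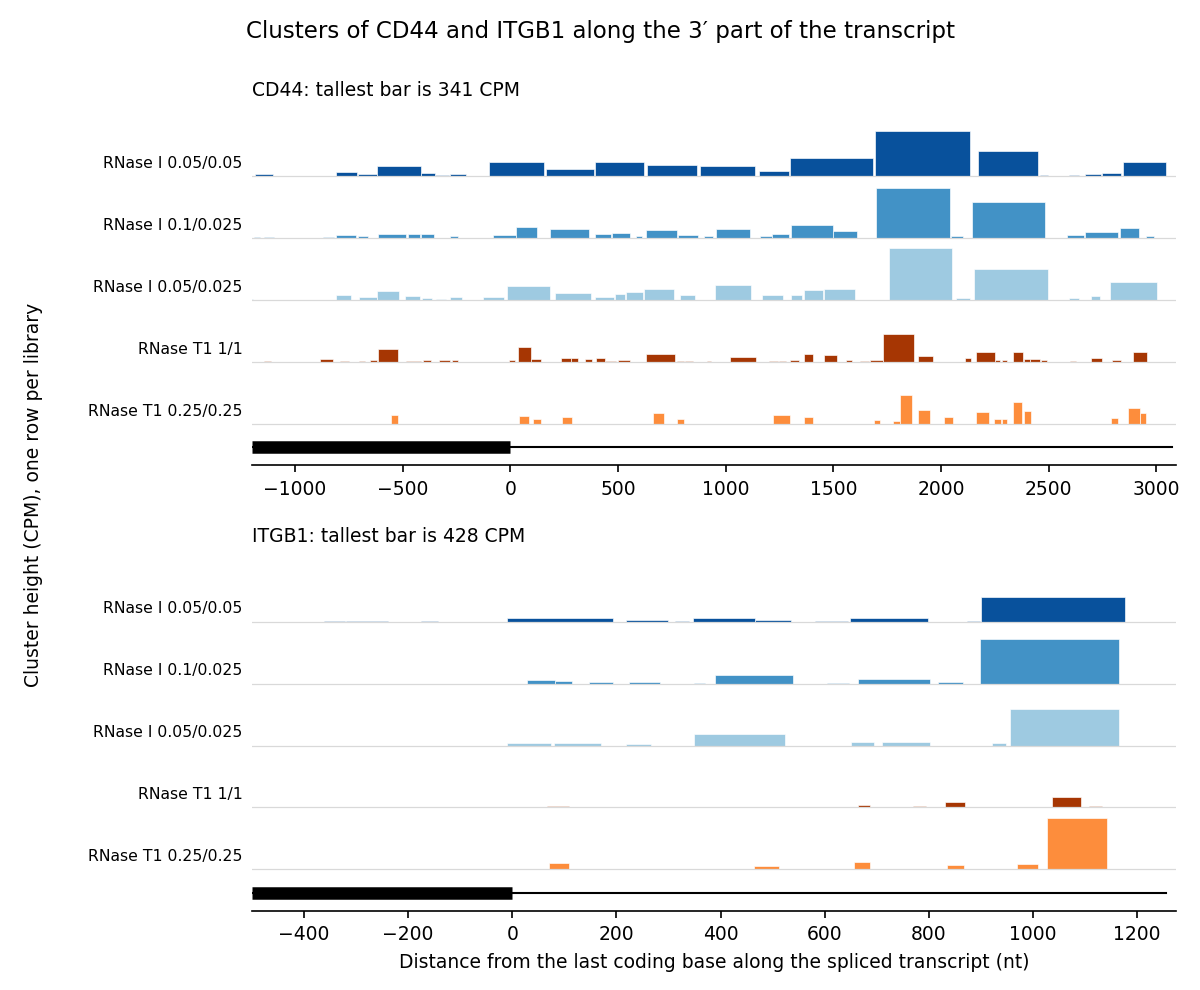
Clusters of CD44 and ITGB1 in each library by distance from the last coding base in nt, with the height of each bar the CPM of the cluster and the thick line the coding sequence. Reads of CD44 run along the whole 3′UTR with a maximum between 1157 and 2138 nt, and those of ITGB1 gather at one site near the 3′ end, with shorter clusters after RNase T1.

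ITGA6 encodes the α6 subunit, which with β1 or β4 binds laminin. Its reads numbered 277, 113, 78, 187 and 22, and its levels were 117, 141, 116, 162 and 121 CPM. All of these intervals overlapped that of RNase I 0.1/0.025. At least 98.6% of reads lay in the 3′UTR, with at most 5.88% in the 3′-most of 3 equal parts, unlike ITGB1. The site chr2:172504716-172505036 held 140, 68, 47, 131 and 16 reads. ITGA6 was a target in the 3 RNase I libraries and in neither RNase T1 library, although its CPM of 162 and 121 there lay above or within the RNase I range: none of its RNase T1 clusters passed both criteria.

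By mean level over the 5 libraries the order was CD44, ITGB1, ITGA6, CLDN4, KRT8, EPCAM, KRT19, CDH1 and KRT18. CD44 and ITGB1 did not overlap in range, with the lowest CD44 level at 1563 CPM and the highest ITGB1 level at 658 CPM. ITGA6, at 116 to 162 CPM, lay below ITGB1 and above CLDN4 in every library. The ranges of CLDN4, KRT8 and EPCAM overlapped, as did those of KRT19, CDH1 and KRT18.

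Targets among the 9 genes numbered 7, 7 and 8 in RNase I 0.05/0.05, 0.1/0.025 and 0.05/0.025, and 5 and 4 in RNase T1 1/1 and 0.25/0.25. Of all 11988 genes, 41.5%, 40.1%, 42.6%, 35.9% and 24.9% were targets in these libraries. CD44, ITGB1 and EPCAM were called in all 5 libraries. CDH1 was not called with RNase I, and KRT8 and KRT19 were not called with RNase T1.

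The enzymes were compared within each way of recovering the complexes, over genes with at least 20 reads in the pair of libraries summed. In the electroeluted pair, RNase I 0.05/0.05 over RNase T1 1/1, KRT8 was 17.7 times higher with RNase I (exact interval 7.46 to 55.3) and KRT19 6.47 times (3.41 to 13.8). The KRT8 ratio compares different exons: its 5 RNase T1 reads lay off the canonical exons and its 181 RNase I reads on them. On canonical exons alone it has no value. ITGB1 was 1.65 times higher with RNase I (1.43 to 1.90), EPCAM 1.57 times (1.08 to 2.33) and CLDN4 1.54 times (1.19 to 2.01). The ratio was 1.01 for CD44 (0.958 to 1.07), 1.36 for KRT18 (0.725 to 2.72) and 0.721 for CDH1 (0.463 to 1.13), intervals that include equality, and 0.726 for ITGA6 (0.601 to 0.878). Thus 2 of 9 genes, KRT8 and KRT19, were over 2-fold higher with RNase I, beside 29.8% of 8685 genes, and none with RNase T1, beside 15.2%. The median log2 ratio over the 5417 genes with 20 reads in both libraries was -0.11, a set that KRT8 and KRT19, with log2 ratios of 4.15 and 2.69, do not enter for want of RNase T1 reads.

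In the crushed-gel libraries the RNase T1 side was the same shallow library for both RNase I libraries, so the pairs are not independent. With RNase I 0.1/0.025, 3 of 7 genes (KRT8, KRT19 and CLDN4) were over 2-fold higher with RNase I, all because RNase T1 had no cluster, beside 41.7% of 4824 genes, and none with RNase T1, beside 6.86%. With RNase I 0.05/0.025, 3 of 6 genes were (KRT8 and CLDN4 with no RNase T1 cluster, and EPCAM at 2.50 times, 0.998 to 8.07), beside 39.1% of 4447 genes, and none with RNase T1, beside 7.65%. These shares of members lie near those of all genes. The median log2 ratios over the 1689 and 1685 genes with 20 reads in both libraries were -0.19 and -0.20, whereas 67.4% and 65.7% of the 4824 and 4447 genes above were higher with RNase I. At its RNase I level KRT8 would have had 14.5 or 18.5 reads in the RNase T1 0.25/0.25 library and CLDN4 8.63 or 10.9. KRT19 would have had 4.54 or 4.90 and KRT18 2.72 or 2.18, so for these an absent cluster says little at this depth. The figures sum a whole gene, whereas clusters are called site by site. In these RNase I libraries the largest cluster held 26 of 64 and 26 of 68 KRT8 reads, and 13 of 38 and 12 of 40 CLDN4 reads. The sums thus overstate the reads that a single site would have had, so the absent clusters of KRT8 and CLDN4 are also limited by depth. These depth figures were computed after the levels had been seen.

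**Figure D4:**
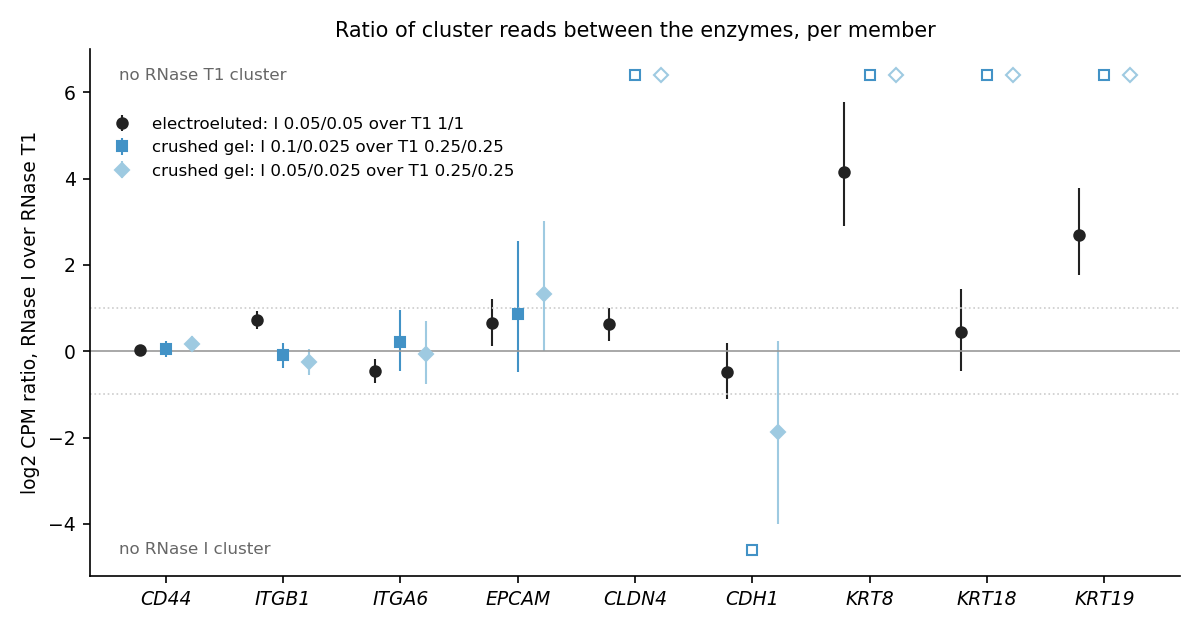
The log2 ratio of CPM, RNase I over RNase T1, for each gene in the electroeluted pair and the crushed-gel pairs, with 95% exact conditional intervals and open symbols at the edge where one library had no cluster. KRT8 at 4.15 and KRT19 at 2.69 stand apart in the electroeluted pair, and CD44 lies near 0 in all pairs. The RNase T1 reads behind the KRT8 value lay off its canonical exons.

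In the pooled reads of the 9 genes, T-to-C conversions made up 8.14%, 8.12% and 7.41% of T readings with RNase I and 5.50% and 5.45% with RNase T1. Over all clusters these shares were 8.01%, 8.03%, 7.33%, 5.65% and 6.18%, so both had fewer conversions after RNase T1. Per read, CD44 had 0.62, 0.64, 0.61, 0.47 and 0.51 conversion events, ITGB1 0.64, 0.64, 0.59, 0.48 and 0.55, and ITGA6 0.67, 0.69, 0.69, 0.42 and 0.41. The RNase T1 values of these genes lie around the criterion of 0.5. EPCAM stayed above it in each library, at 0.67, 0.62, 0.67, 0.71 and 0.60.

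The reads in clusters past this criterion were counted after the calls had been seen, and they separated the enzymes for the most bound genes. Clusters above 0.5 events per read held 97.5%, 97.8% and 88.9% of ITGB1 reads with RNase I but 20.3% and 20.8% with RNase T1. For ITGA6 the shares were 95.3%, 72.6% and 70.5% against 14.4% and 0%, and for CD44 96.1%, 85.9% and 83.4% against 43.6% and 43.5%. Over all clusters they were 87.3%, 84.5% and 77.0% against 46.7% and 56.3%. KRT18 kept 100% of its reads above the criterion in the 4 libraries where it had any. With only clusters above the criterion counted, the electroeluted log2 ratio of ITGA6 turned from -0.46 to 2.26, and that of CD44 rose from 0.02 to 1.16. The median over genes with 20 reads in both libraries also rose, from -0.11 over 5417 genes to 0.62 over 4036. For ITGA6 the filter left 264 of 277 RNase I reads and 27 of 187 RNase T1 reads.

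**Figure D5:**
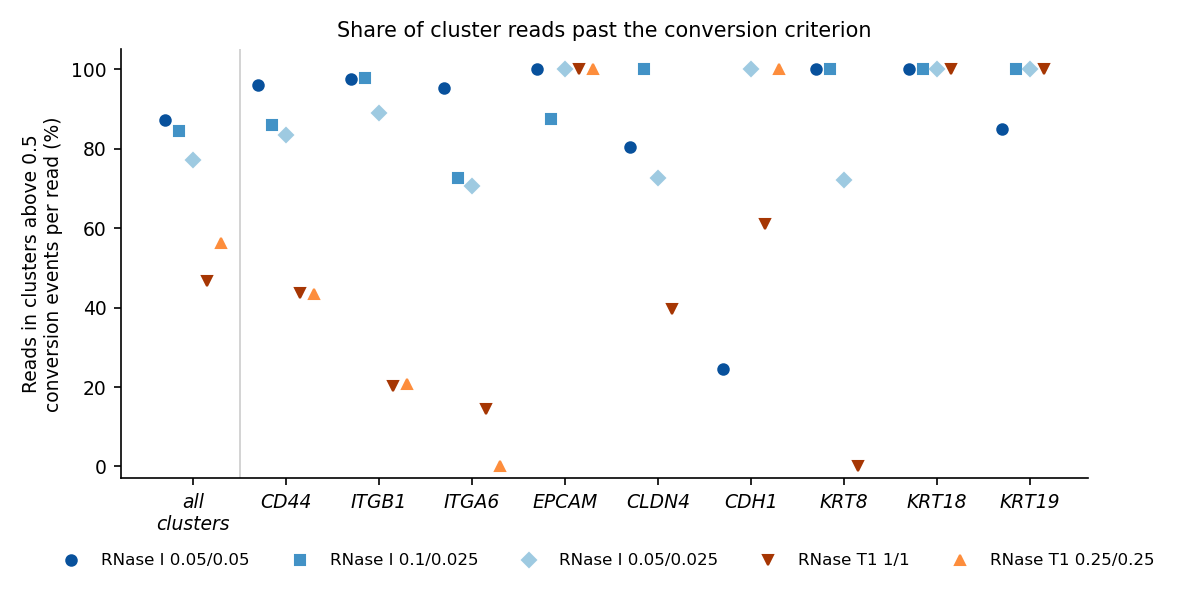
Share in percent of cluster reads that lie in clusters above 0.5 conversion events per read, for all clusters and for each gene, with 1 point per IGF2BP3 library. For CD44, ITGB1 and ITGA6 the RNase T1 points lie well below the RNase I points, whereas EPCAM stays at 87.5% or above.

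Over the pooled 9 genes, 82.8%, 88.9%, 86.7%, 84.7% and 92.5% of reads lay in clusters on a 3′UTR of any annotated transcript, and 74.9%, 79.9%, 79.5%, 76.3% and 86.3% when canonical exons alone were used. The clusters covered 59.3%, 41.5% and 38.6% of the summed 3′UTR length with RNase I, and 27.4% and 12.5% with RNase T1, in an order that followed depth within each enzyme. Clusters merged into 121 sites, of which 14 were seen in all 5 libraries and 61 in 1 library. Most RNase T1 clusters fell on sites also found with RNase I: 74 of 87 clusters of RNase T1 1/1 (85.1%, Wilson interval 76.1 to 91.1) overlapped a cluster of RNase I 0.05/0.05, and 33 of 35 of RNase T1 0.25/0.25 (94.3%, 81.4 to 98.4) one of RNase I 0.1/0.025. In the other direction, 43 of 119 (36.1%, 28.1 to 45.1) and 24 of 79 (30.4%, 21.3 to 41.2) did. Over all clusters of the series the shares were 72.4% and 87.7% from RNase T1 to RNase I, and 36.5% and 22.04% in the other direction.

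Beyond the 9 genes, 45 genes of the same systems were read for context: other components of adherens junctions, desmosomes and tight junctions, keratins, integrins and their membrane partners. Of these, 35 had a cluster in some IGF2BP3 library, 17 in all 5, and 29 were called a target at least once. Of the 11988 genes with a cluster, 28.7% had one in all 5 libraries and 58% were called at least once. These shares leave out genes without a cluster, so they stand beside the 35 genes and not the 45. EZR, a linker of membrane and actin and a partner of CD44, had 1368, 1068, 1178, 924 and 2044 CPM, and the desmosomal cadherin DSG2 958, 1021, 893, 924 and 959 CPM. VCL, which encodes vinculin, had 373, 229, 236, 455 and 247 CPM. Genes without a cluster in any library included CLDN1, CLDN3, CGN, KRT7, KRT20, KRT80, ITGB6 and ITGB8. In the electroeluted pair, 7 of 33 of these genes were over 2-fold higher with RNase I and 3 with RNase T1, beside 29.8% and 15.2% of all genes.

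Of 8 epithelial marker genes, 7 had clusters in the deepest library, all but CLDN3, and 3 had them in RNase T1 0.25/0.25. Apart from CLDN3 and CLDN7 these markers are members themselves, and the lists were chosen with earlier results known. The count is therefore no independent check of cell identity. None of 4 blood and 3 endothelial markers had any in the IGF2BP3 libraries, and of 9 mesenchymal markers ZEB1 and TWIST1 had clusters, of 14 and 9 reads in RNase T1 1/1, while VIM and CDH2 had none. Presence of clusters is not a level of RNA.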

How the data were processed

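The 6 PAR-CLIP libraries (5 IGF2BP3, 1 IgG, 1 per condition) were grouped by their titles and antibody labels. The authors collapsed duplicates by UMI (UMI-tools 1.1.1), kept reads of 18 to 45 nt (Trimmomatic 0.30), allowed up to 3 mismatches against GRCh38 (Bowtie 0.12.7) and ran PARalyzer on each library alone. Their deposited tables give read counts, conversion event and location counts and, as a fraction, a mode score that was not used. Base calling used bcl2fastq 2.20.0.422 per the labels.

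Here, clusters were assigned to GENCODE 44 exons, reads were scaled to CPM over cluster reads, a cluster touching a 3′UTR was counted there first (of any annotated transcript in pooled shares), and windows were read from hg38, with Python 3.11.15, pandas 2.3.3, scipy 1.17.1, pysam 0.24.0 and samtools 1.23.1. All 388 member cluster sequences matched hg38. Intervals were exact Poisson, exact conditional or Wilson at 95%. UMI-collapsed reads are counts of 1 library, so depth sets their precision and no test between conditions was made. The scripts were tested on simulated data.

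The members and gene lists were chosen with earlier results of these data known. Named were all members, the 3 context genes with the most CPM and those without clusters (some of which are not reported here), the 3 genes most like the leading member, each member's top site, and parent copies with over 1% of the parent's reads. Named beside the rule, after their values were seen, were ZEB1, TWIST1, the second CD44 site and further keratin and CLDN4 sites. Alternatives changed the CPM, read and conversion thresholds, the exons used, the scaling and the order of features. A methods passage and the labels differ on 1 RNase I concentration, and the labels were followed.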

Additional observations from a re-analysis of the deposited data

How the results depend on the processing

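Of 95 alternative values for counts and shares over the 9 genes, 62 stayed within their limits and 33 moved, and of 86 for single ratios 74 stayed, 11 moved and 1 changed direction. Limits were the 95% interval of the main value for shares and ratios, and a fixed fold change for counts. Keeping clusters on no other gene could move none of its 11 and 18 values, as no member cluster lay on another gene. Keeping clusters of at least 3 reads left its 6 and 18 values unchanged. These settings say nothing of stability. Target calls were set by the thresholds. Above 0.75 conversion events per read they fell to 2 in RNase I 0.05/0.05, 5 in RNase I 0.05/0.025, 1 (CD44) in RNase T1 1/1 and 2 in RNase T1 0.25/0.25. Asking that over 0.5 of all T events be converted left 0 in each of the 5 libraries. At least 20 reads in place of the CPM limit left 4 in RNase I 0.1/0.025, 5 in RNase I 0.05/0.025 and 0 in RNase T1 0.25/0.25, so the 4 calls of that library rest on few reads. In RNase T1 1/1 a limit of 5 CPM gave 8 and one of 20 CPM gave 3. The shares of all genes called at these other thresholds were not counted. Whether the 9 genes moved more or less than all genes is therefore not known.

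Counting only clusters above 0.5 events per read, 6 genes were over 2-fold higher with RNase I in each of the 3 pairs. The share of all genes over 2-fold was not counted under this filter, so these counts have no baseline. Over all clusters the filter kept 87.3% of reads in RNase I 0.05/0.05 but 46.7% in RNase T1 1/1. With it the ratio of ITGA6 reversed to 2.26 on the log2 scale in the electroeluted pair. The ratio of CD44 was then 1.16, 1.02 and 1.11 and that of ITGB1 2.98, 2.13 and 1.84 in the 3 pairs, while the median over genes with 20 reads in both libraries was 0.62, 0.25 and 0.10. Scaling to the median ratio gave CD44 0.13, 0.24 and 0.37. On canonical exons alone KRT8 had no RNase T1 reads, so its ratio had no value.

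With coding sequence assigned before 3′UTR, the 3′UTR share of reads was 65.9%, 77.9%, 74.4%, 74.0% and 86.3%, and on canonical exons 74.9%, 79.9%, 79.5%, 76.3% and 86.3%, in the order RNase I 0.05/0.05, 0.1/0.025, 0.05/0.025, RNase T1 1/1 and 0.25/0.25. With clusters above 10 CPM, 3′UTR coverage was 44.3%, 36.2%, 37.2% and 19.4% in the first 4. With clusters of at least 20 reads the conversion share was 4.99% in RNase T1 1/1 and 3.53% in RNase T1 0.25/0.25. The cause of these moves was not tested. No paired analysis was possible because each condition had a single library and no test was made. Depth limits the shallow RNase T1 0.25/0.25 library most.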
